A study of Mus musculus with 10 samples.

Results

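The 10 genes described here carry glucose and fructose into hepatic metabolism: Slc2a2, the glycolytic enzymes Pfkl, Tpi1, Pgk1, Pgam1, Pklr and Ldha, the glucose-sensing pair Mlxipl and Txnip, and the fructose enzyme Khk. They were taken by symbol, as every probe set annotated to exactly 1 of the 10 names, which gave 19 probe sets of the 45037 tested and 10 of 18193 named genes. A probe set is a group of short array probes that together read 1 transcript. Slc2a2, Pgam1, Ldha, Mlxipl and Khk had 1 probe set each, Txnip had 2, and Pfkl, Tpi1, Pgk1 and Pklr had 3 each.

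Liver RNA came from 10 lactating mice of the QSi5 strain, with 1 array per mouse. The 5 HGI mice were given high GI (glycaemic index) food, in which glucose made up 51.4% by weight and gross energy was 15.6 MJ/kg. The 5 LGI mice were given low GI food, in which a starch named Hi-Maze, high amylase starch in the labels, made up 51.4% and gross energy was 16.3 MJ/kg. Both diets ran from pregnancy to peak lactation, when the livers were taken, and no other diet or stage was analysed here. The labels give a positive energy balance for every HGI mouse and a negative energy balance for every LGI mouse, so diet and energy balance cannot be told apart. The comparison asks how far transcripts of glucose use differ between lactating mice on a glucose diet and on a starch diet.

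In hepatocytes, glucose enters through GLUT2, the product of Slc2a2, and is broken down through glycolysis to pyruvate, which Ldha exchanges with lactate. Fructose enters the same route below the phosphofructokinase step after Khk (ketohexokinase) has phosphorylated it. Mlxipl encodes ChREBP, a transcription factor that is activated by sugar metabolites and binds carbohydrate response elements, paired E-box-like sites in promoters such as those of Pklr and Txnip. Txnip binds thioredoxin and restrains glucose uptake.

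RefSeq promoter windows (build GRCm38.p6, 250 bases before to 50 after a start) were matched for all 10 genes and gave 13 windows. A loose form of the carbohydrate response element, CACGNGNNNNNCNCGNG, was searched on both strands. It lies in 1 window each of Pklr and Txnip and in 0.365% of all 32851 windows. This form was written with the known Pklr and Txnip elements in mind, so these matches describe the sequences and test nothing. The matched elements are shown first because they are the sites through which sugar is known to act on both genes.
Pklr element, positions -170 to -154 from the start: CACGGGGCACTCCCGTG
Txnip element, positions -85 to -69 from the start: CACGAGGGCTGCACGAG

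The whole windows follow, with the element in capitals. The Pklr window is that of the downstream of its 2 listed starts (chr3:89136373-89136672, + strand), and the upstream window held no match. The Txnip window is chr3:96557707-96558006, + strand.
Pklr: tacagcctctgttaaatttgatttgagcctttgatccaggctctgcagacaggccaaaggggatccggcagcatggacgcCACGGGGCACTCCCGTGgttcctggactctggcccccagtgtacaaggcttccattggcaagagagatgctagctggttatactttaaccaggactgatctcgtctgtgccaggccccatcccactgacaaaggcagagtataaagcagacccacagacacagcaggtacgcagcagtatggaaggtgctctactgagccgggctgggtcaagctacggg
Txnip: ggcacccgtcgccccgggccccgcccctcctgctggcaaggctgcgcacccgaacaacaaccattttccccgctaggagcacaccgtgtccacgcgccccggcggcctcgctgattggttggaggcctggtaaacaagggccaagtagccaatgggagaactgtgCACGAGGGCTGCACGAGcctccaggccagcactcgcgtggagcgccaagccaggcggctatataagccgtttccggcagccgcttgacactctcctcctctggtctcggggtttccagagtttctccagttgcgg

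The simple E-box CACGTG, searched on both strands as well, was found in windows of Ldha, Mlxipl and Khk and in 7.15% of all windows. The upstream Ldha window (chr7:46845554-46845853, + strand) holds 2 of them, in capitals here. It is shown because Ldha was high in LGI 4, the liver in which Pklr was lowest. Khk, with the same E-box, was lowest in LGI 4 (10.18 log2), and Mlxipl was not extreme there (9.14 log2). The choice rests on expression, so it tests nothing about the E-box.
Ldha: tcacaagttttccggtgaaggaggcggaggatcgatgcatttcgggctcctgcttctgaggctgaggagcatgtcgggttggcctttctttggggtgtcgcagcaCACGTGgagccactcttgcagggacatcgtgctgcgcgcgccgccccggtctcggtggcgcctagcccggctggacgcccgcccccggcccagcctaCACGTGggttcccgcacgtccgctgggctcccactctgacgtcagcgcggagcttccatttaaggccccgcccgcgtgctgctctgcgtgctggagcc

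The values are log2 expression per probe set, and each difference is HGI minus LGI on the log2 scale. Each probe set was tested with limma across the whole table, with p-values adjusted over all 45037 probe sets and a threshold of 0.05. Of the 19 member probe sets, 0 passed, against 29 probe sets or 0.0644% of the table. An unadjusted p under 0.05 was found at 5 of the 19, against 7.54% of all probe sets. These 5 belong to 2 genes, Pklr at its 3 probe sets and Pfkl at its 2 bright ones. The 2 diets did not overlap at 1 member probe set, against 1.67% of the table.

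LGI 4 and HGI 1 stood apart on the arrays as a whole. A liver was counted as separated at a probe set where its gap to the nearest liver of its diet was over 0.71 of the range of that diet. Among the 11472 bright probe sets, those whose mean log2 was 6 or more, LGI 4 was separated on the low side at 4.04% and on the high side at 3.91%. HGI 1 was separated on the low side at 5.31% and had the lowest value of its diet at 67.7% of them. For the other 8 livers these shares lay between 0.0785% and 0.601% on either side. The array of HGI 1 also had the narrowest spread of values, with an SD of 2.157 log2 against 2.255 to 2.312 log2 on the other arrays. The part of this narrower spread in the low values of HGI 1 was not tested. The mean of 6 hepatocyte markers lay between 13.45 and 13.59 log2 in HGI and between 13.42 and 13.61 log2 in LGI. Markers of adipocytes and muscle were dim, with array means between 3.17 and 3.34 log2 in HGI and between 3.26 and 3.33 log2 in LGI. Differences above 0 were found at 3 of 6 stellate cell markers and 2 of 4 bile duct markers, and 0 of these passed.

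Pklr, the liver and red cell pyruvate kinase that makes pyruvate in the last step of glycolysis, had the largest difference among the 10 genes at their brightest probe sets. At its brightest probe set (1438711_at) it measured 9.20, 9.82, 8.92, 9.88 and 9.61 log2 in HGI 1 to HGI 5, against 8.93, 9.10, 9.09, 7.07 and 8.85 log2 in LGI 1 to LGI 5. Of the HGI livers 4 lay above every LGI liver and HGI 3 lay within them, while LGI 4 lay far below all others. The means were 9.49 ± 0.41 log2 in HGI and 8.61 ± 0.87 log2 in LGI (SD, n = 5 each). The difference was 0.88 ± 0.34 (SE), 1.84-fold (95% interval 1.11 to 3.06), and did not pass (adjusted p = 0.563, two-sided exact permutation p = 0.0397).

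At the dimmer Pklr probe set 1421258_a_at the HGI livers measured 7.73, 9.18, 8.02, 8.88 and 8.15 log2, against 8.20, 7.74, 7.94, 5.82 and 7.51 log2 in the LGI livers. At 1421259_at they measured 7.10, 8.30, 7.23, 7.98 and 7.26 log2, against 7.42, 6.95, 7.39, 5.93 and 6.64 log2 in LGI. HGI 2 and HGI 4 were highest and LGI 4 lowest at both, and the groups overlapped. The differences were 0.95 ± 0.40 (SE, adjusted p = 0.608) and 0.71 ± 0.29 (SE, adjusted p = 0.592).

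The Pklr difference was smaller at all 3 probe sets without LGI 4. The 3 differences were then 0.50, 0.55 and 0.48, and adjusted p lay between 0.508 and 0.701. The 4 other LGI livers were close together at the brightest probe set, at 8.99 ± 0.12 log2 (SD, n = 4). Pklr is also made by red cell precursors, and erythroid markers lay in the same direction: 4 of 4 measured markers had a difference above 0, with array means between 5.29 and 5.98 log2 in HGI and between 4.32 and 5.29 log2 in LGI. Slc4a1, the red cell anion exchanger, stood at 2.25 at its brightest probe set, which did not pass (adjusted p = 0.0625). It was 2.57 higher in HGI at 1434502_x_at, which passed (adjusted p = 0.0211). The ending _x_at marks sets with probes that also match other sequences. The remaining Slc4a1 probe set, 1431743_a_at, was dim (mean 3.32 log2) and stood at -0.01 (adjusted p = 0.997). Alas2, the erythroid heme synthesis enzyme, stood at 1.34. Hba-a1 and Epb42 lay below the median of every array. The part of red cells in the Pklr difference was not tested. In bulk liver, fewer cells of a type and less RNA per cell cannot be told apart.

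**Figure D1:**
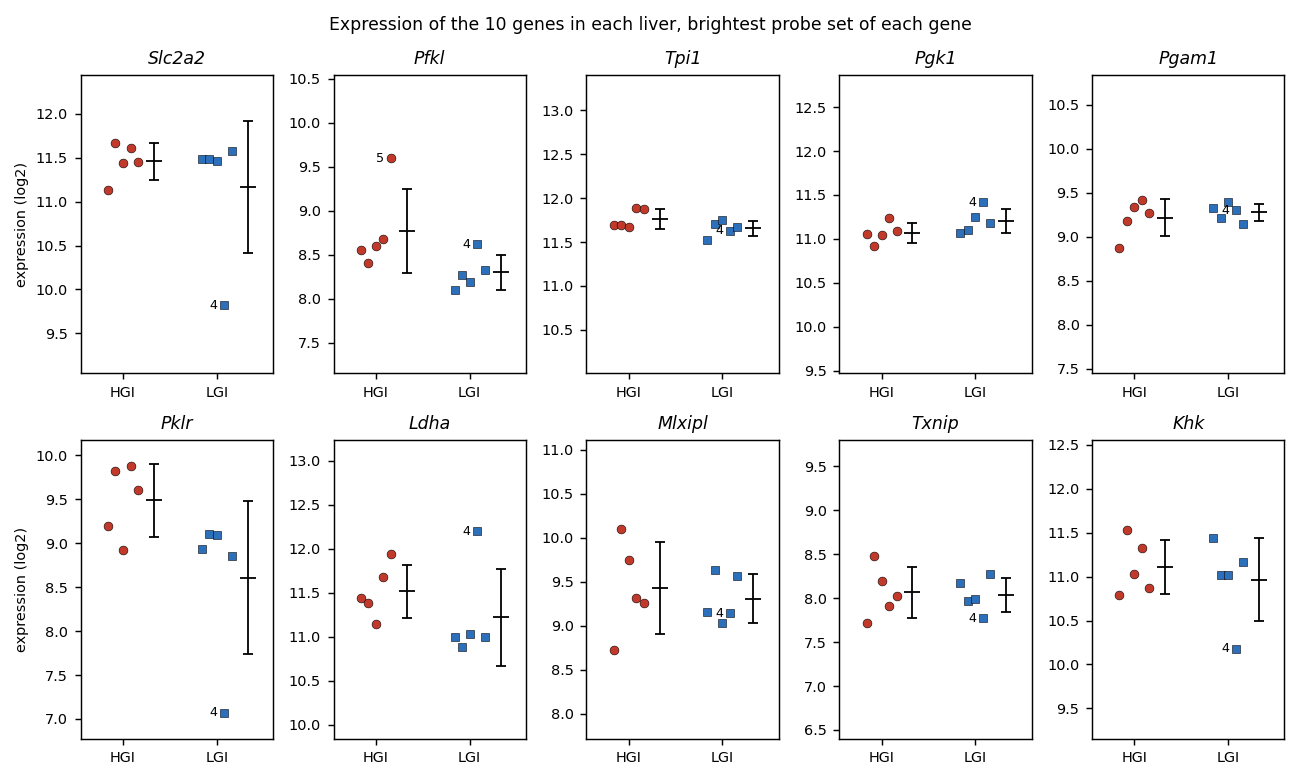
Expression (log2, vertical axis) of the 10 genes in each liver at the brightest probe set of each gene, with HGI livers as circles and LGI livers as squares, in label order from left to right. Bars give the mean and SD (n = 5), every panel spans the same range of log2 values, and the marked points are HGI 5 in Pfkl and LGI 4 in every panel. LGI 4 lies low in Slc2a2 (9.82), Pklr (7.07) and Khk (10.18) and high in Ldha (12.20).

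Pfkl, the liver subunit of phosphofructokinase, which commits sugar to glycolysis, was the only member at which the diets did not overlap. At 1450269_a_at it measured 7.50, 7.63, 7.59, 7.71 and 8.47 log2 in HGI 1 to HGI 5, against 7.38, 7.26, 7.22, 7.39 and 7.21 log2 in LGI 1 to LGI 5. Every HGI liver lay above every LGI liver, and HGI 5 lay far above the rest. The difference was 0.49 ± 0.15 (SE), 1.40-fold (95% interval 1.11 to 1.77), and did not pass (adjusted p = 0.447). Its two-sided exact permutation p of 0.00794 is the smallest that 5 against 5 arrays can give.

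The brightest Pfkl probe set (1439148_a_at) measured 8.55, 8.41, 8.60, 8.68 and 9.60 log2 in the HGI livers, against 8.10, 8.27, 8.19, 8.62 and 8.33 log2 in the LGI livers. Here LGI 4 reached into the HGI range, and HGI 5 again stood above all. The difference was 0.47 ± 0.19 (SE, adjusted p = 0.586). Without HGI 5 it was 0.26 (adjusted p = 0.719), and 0.32 at 1450269_a_at (adjusted p = 0.450). The remaining Pfkl probe set had a mean of 3.19 log2, below the median of every array, and stood at -0.11 (adjusted p = 0.848).

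HGI 5 also had the highest mean of Kupffer cell markers, the resident macrophages of liver. All 7 of these markers had a difference above 0, with array means between 7.53 and 8.46 log2 in HGI and between 7.26 and 8.02 log2 in LGI, and the highest of each diet were HGI 5 and LGI 4. HGI 5 had the highest HGI value in 6 of the 7 markers. Endothelial markers were above 0 in 7 of 7, with array means between 6.24 and 6.91 log2 in HGI, the highest in HGI 5, and between 6.07 and 6.39 log2 in LGI. HGI 5 also had the highest HGI mean of the stellate cell markers (7.32 log2, others 6.68 to 7.14), the bile duct markers (4.62 log2, others 4.15 to 4.34) and the erythroid markers (5.98 log2, others 5.29 to 5.92). Marker by marker, it was the highest HGI liver in 3 of 7 endothelial and 4 of 6 stellate cell markers. It was so in 2 of 4 erythroid markers and in 1 of 4 bile duct markers, Krt19 (6.15 log2). All 4 bile duct markers had a mean log2 under 6. The part of these cells in the Pfkl difference was not tested.

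Ldha, the lactate dehydrogenase subunit that favours lactate formation, measured 11.44, 11.38, 11.14, 11.68 and 11.94 log2 in HGI 1 to HGI 5, against 11.00, 10.88, 11.03, 12.20 and 11.00 log2 in LGI 1 to LGI 5. LGI 4 had the highest value of all 10 livers, and the other LGI livers lay below every HGI liver. The means were 11.52 ± 0.30 log2 in HGI and 11.22 ± 0.55 log2 in LGI (SD, n = 5 each), a difference of 0.29 ± 0.23 (SE, adjusted p = 0.832). Without LGI 4 it was 0.54 (adjusted p = 0.250), against 10.98 ± 0.07 log2 (SD, n = 4) in the LGI livers that remained.

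LGI 4 was singled out after its values were seen. Without it the diets did not overlap at 4 member probe sets, Ldha, 2 of Pfkl and 1 of Pgk1, against 3.05% of the table on the same arrays. The difference at the Pgk1 probe set was small (-0.07).

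Slc2a2, whose product GLUT2 carries glucose across the hepatocyte membrane, measured 11.13, 11.67, 11.44, 11.61 and 11.45 log2 in HGI 1 to HGI 5, against 11.48, 11.48, 11.46, 9.82 and 11.58 log2 in LGI 1 to LGI 5. LGI 4 lay 1.68 log2 below the mean of the other LGI livers, which lay between 11.46 and 11.58 log2. The difference was 0.30 ± 0.28 (SE, adjusted p = 0.878) with LGI 4 and -0.04 without it.

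Tpi1, triose phosphate isomerase, measured 11.69, 11.69, 11.67, 11.89 and 11.87 log2 in the HGI livers, against 11.52, 11.70, 11.75, 11.63 and 11.67 log2 in the LGI livers at its brightest probe set. HGI 4 and HGI 5 were highest and the groups overlapped. Its 3 probe sets stood at 0.11, 0.07 and 0.16, with the widest 95% interval from -0.13 to 0.45. The names of the brightest Tpi1 and Pgk1 probe sets end in _x_at, which marks sets with probes that also match other sequences.

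Pgk1, phosphoglycerate kinase, which makes the first ATP of glycolysis, lay slightly lower in HGI at all 3 of its probe sets (-0.13, -0.07 and -0.09, adjusted p between 0.803 and 0.885). At 1417864_at it measured 11.06, 11.09, 11.15, 11.04 and 11.13 log2 in the HGI livers, against 11.19, 11.15, 11.18, 11.14 and 11.15 log2 in the LGI livers. All HGI livers but HGI 3 lay below every LGI liver. The within-diet SD was 0.04 log2, and 0.0349% of the bright probe sets varied less. The two-sided exact permutation p was 0.0159 at this probe set and at 1439435_x_at. The 95% interval of the limma difference at 1417864_at ran from -0.21 to 0.08 (SE 0.07). That SE uses a variance that limma draws towards those of all probe sets. It is therefore larger than the spread of these values alone would give.

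Pgam1, phosphoglycerate mutase, measured 8.87, 9.18, 9.34, 9.42 and 9.27 log2 in the HGI livers, against 9.33, 9.21, 9.40, 9.30 and 9.15 log2 in the LGI livers. HGI 1 was lowest and the groups overlapped. The difference of -0.06 ± 0.10 (SE, adjusted p = 0.947) became 0.03 without HGI 1.

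**Figure D2:**
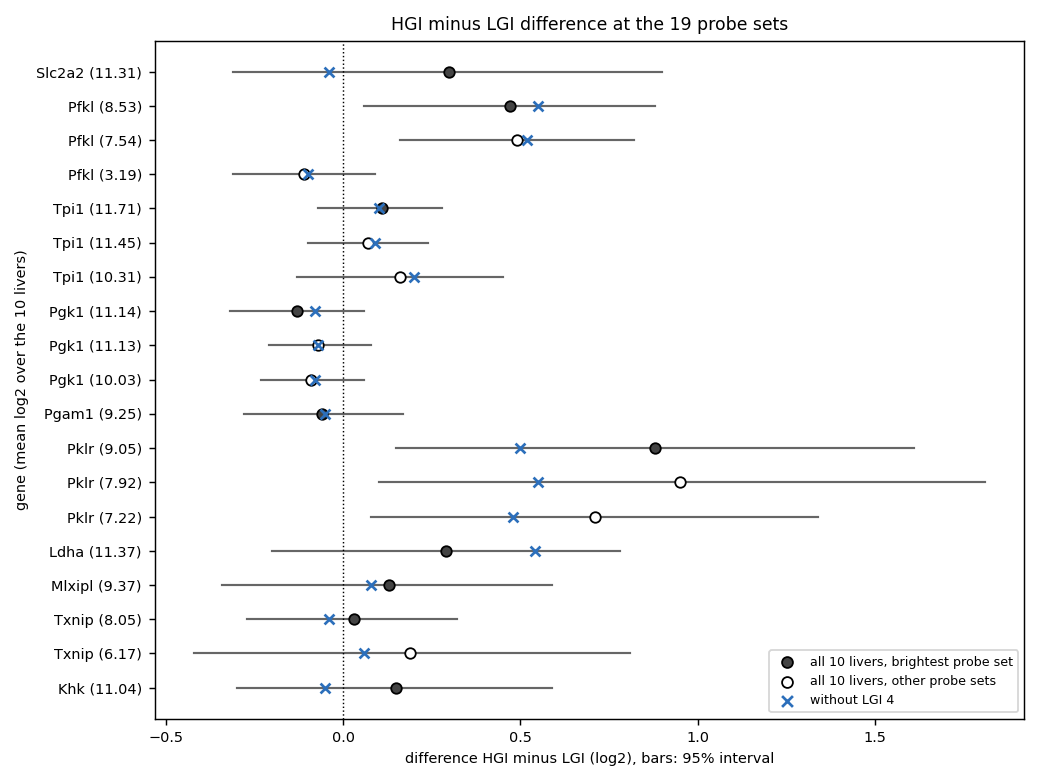
Difference HGI minus LGI (log2, horizontal axis) with its 95% interval at each of the 19 probe sets, named by gene with the mean log2 over the 10 livers. Filled circles are the brightest probe set of a gene, open circles its other probe sets, and crosses the difference without LGI 4, which moves Pklr from 0.88 to 0.50, Slc2a2 from 0.30 to -0.04 and Ldha from 0.29 to 0.54.

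Mlxipl, the gene of ChREBP, measured 8.73, 10.10, 9.75, 9.32 and 9.26 log2 in HGI 1 to HGI 5, against 9.16, 9.64, 9.03, 9.14 and 9.57 log2 in LGI 1 to LGI 5. Both the highest and the lowest liver ate the HGI diet. The difference was 0.13 ± 0.21 (SE, adjusted p = 0.944), with a 95% interval from -0.34 to 0.59.

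Txnip, the thioredoxin-binding partner in glucose sensing, measured 7.72, 8.48, 8.19, 7.91 and 8.02 log2 in the HGI livers, against 8.17, 7.97, 7.99, 7.77 and 8.27 log2 in the LGI livers at its brightest probe set (1415996_at). The difference was 0.03 ± 0.14 (SE, adjusted p = 0.983), the smallest of the 10 genes in absolute size at their brightest probe sets, with a 95% interval from -0.27 to 0.32. At its dimmer probe set the livers measured 5.94, 7.26, 6.47, 5.98 and 5.70 log2 in HGI, against 6.85, 5.76, 6.12, 5.52 and 6.12 log2 in LGI. HGI 2 was highest and the difference was 0.19 ± 0.29 (SE, adjusted p = 0.931).

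The windows of Pklr and Txnip carry the elements printed above. Pklr stood at 0.88 and Txnip at 0.03, and HGI 2 was the highest or second highest liver in both. Whether the 2 differences are themselves different was not tested.

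Khk, the first enzyme of fructose use, measured 10.79, 11.53, 11.03, 11.32 and 10.87 log2 in HGI 1 to HGI 5, against 11.44, 11.02, 11.02, 10.18 and 11.16 log2 in LGI 1 to LGI 5. HGI 2 was highest and LGI 4 lowest, and the groups overlapped widely. The difference was 0.15 ± 0.21 (SE, adjusted p = 0.926), and -0.05 without LGI 4.

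Taking the 10 genes at their brightest probe sets, 8 had a difference above 0 and 2 below it. Of all named genes, 7161 had a mean log2 of 6 or more, and 37.9% of these had a difference above 0. The median was 0.14 over the 10 genes and -0.04 over the 7161. Over the 10 genes it was 0.02 without LGI 4, 0.26 without HGI 1, and 0.08 without both, which were left out together after seeing the data. The median over the 7161 was not taken with livers left out. HGI 1 had the lowest HGI value at 67.7% of the bright probe sets, so leaving it out raises the difference at most of them.

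The 10 genes differed in how far livers of 1 diet varied. The within-diet SD was 0.68 log2 for Pklr and 0.55 log2 for Slc2a2, larger than at 98.9% and 97.6% of the bright probe sets, whose median SD was 0.19. Without LGI 4 it was 0.32 log2 for Pklr and 0.16 log2 for Slc2a2, larger than at 89.5% and 37.4% of them. The SD of Mlxipl was 0.42 log2 with LGI 4 and 0.44 log2 without it. At the other end, Tpi1 had 0.10 log2 at its brightest probe set, larger than at 4.69% of the bright probe sets. LGI 4 combined low Slc2a2, Pklr and Khk with high Ldha and Pgk1 at the brightest probe set of each. Against the mean of the other LGI livers, its Pgk1 lay 0.27 log2 higher there. At 1417864_at and 1439435_x_at the deviation was -0.03 and 0.03 log2. HGI 2 was the highest of the 10 livers in Slc2a2, Mlxipl, Txnip and Khk, and HGI 1 was the lowest in Mlxipl, Txnip and Pgam1.

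**Figure D3:**
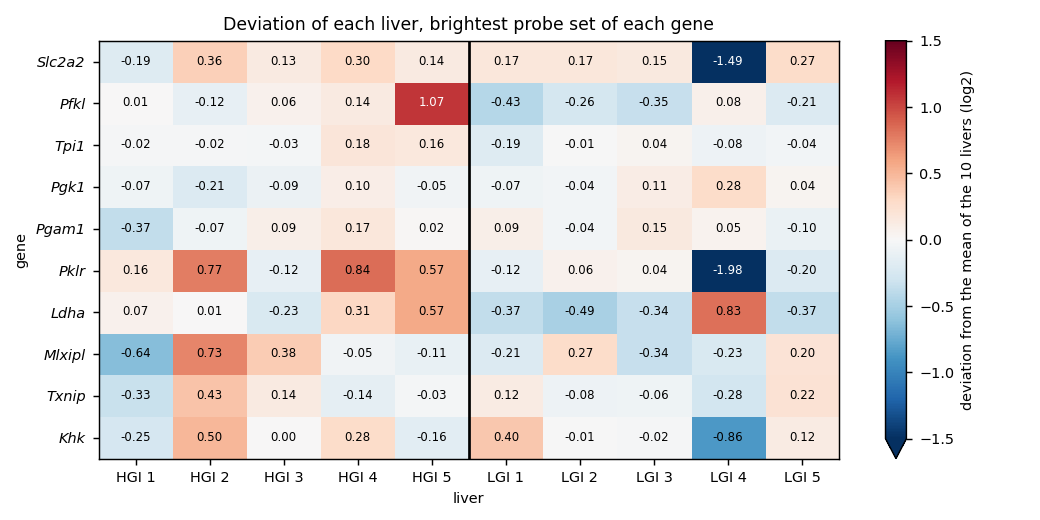
Deviation of each liver (columns) from the mean of the 10 livers (log2, colour and printed value) for each gene (rows) at its brightest probe set, with HGI left of the line and LGI right of it. LGI 4 has the lowest values in Slc2a2 (-1.49) and Pklr (-1.98) and the highest in Ldha (0.83), and HGI 5 has the highest in Pfkl (1.07); the colour scale ends at -1.5 and 1.5.

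Values of LGI 4 outside the 10 genes moved with these. Over all bright probe sets, LGI 4 was the lowest LGI liver at 33.3% and the highest at 30.4%. Of 12 measured ChREBP target genes, 11 had their lowest LGI value in LGI 4, among them Pnpla3, a lipid droplet hydrolase (5.51 log2, against 7.99 to 8.44 log2 in the other LGI livers). The mean over the 12 was 9.33 log2 in LGI 4, against 10.38 to 10.59 log2 in the other LGI livers. The neutrophil genes S100a8 and S100a9 were at 8.92 and 9.31 log2 in LGI 4, while the other LGI livers lay between 3.95 and 4.28 log2 and between 5.40 and 5.75 log2. In HGI they lay between 3.88 and 6.28 log2 and between 5.25 and 6.78 log2. Both come from a list of lymphocyte and neutrophil markers, of which 6 were measured. LGI 4 was the highest LGI liver in 2 of the 6, S100a8 and S100a9, and the lowest in 1, Cd3e (5.77 log2). Ly6g, a neutrophil marker of that list, was not analysed here. Among the LGI livers, LGI 4 was lowest in 5 of 6 hepatocyte markers, with a mean of 13.42 log2 against 13.56 to 13.61 log2 in the other LGI livers. The part of these in the values of the 10 genes was not tested.

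The other genes of the pathway came from lists of roles. Of 16 other glycolytic enzymes, 0 passed in either direction, 12 had a difference above 0 and 4 below, and the median was 0.09. A mean log2 under 6 was found at 11 of the 16, so the count and median rest largely on dim genes. Bpgm, which makes the red cell effector 2,3-bisphosphoglycerate, had the largest difference. It measured 7.91, 7.69, 8.35, 7.84 and 8.70 log2 in the HGI livers, against 7.74, 7.03, 7.33, 7.0 and 7.12 log2 in the LGI livers. All but HGI 2 lay above every LGI liver, and the difference was 0.86 ± 0.19 (SE, adjusted p = 0.183). The erythroid markers given above lay in the same direction, and their part was not tested.

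Pkm, the pyruvate kinase of most tissues outside the liver, stood at 0.39 ± 0.16 (SE, adjusted p = 0.596) and Aldoa, aldolase A, at 0.30 ± 0.12 (SE, adjusted p = 0.578). Pkm was highest in HGI 5 at 6.58 log2, the liver with the highest Kupffer cell markers, and Aldoa was highest in HGI 4 at 9.83 log2. Gpi1, Eno1 and, beyond its control probe sets, Gapdh were not analysed here.

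Of the 3 measured enzymes that make and break fructose 2,6-bisphosphate, the activator of phosphofructokinase, 0 passed. Pfkfb2 stood at -0.14, Pfkfb4 at -0.04 and Pfkfb3 at 0.02, and all 3 had a mean log2 under 6. Of 8 other sugar transporters 0 passed, 1 had a difference above 0 and 7 below, with a median of -0.05. Dim genes, with a mean log2 under 6, made up 4 of the 8. Slc2a4, the insulin-responsive transporter, stood at 0.35 ± 0.13 (SE, adjusted p = 0.520), Slc2a9, a urate transporter, at -0.24 and Slc2a5, a fructose transporter, at -0.11.

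Among 4 measured fructose and polyol genes, 0 passed and the median was 0.00. Tkfc, which phosphorylates the glyceraldehyde made from fructose, stood at 0.21 ± 0.20 (SE, adjusted p = 0.881), Gckr, a regulatory protein that binds fructose phosphates, at 0.24 ± 0.13 (SE, adjusted p = 0.728), and Glyctk, glycerate kinase, at -0.20 (adjusted p = 0.736). Aldh1b1, a mitochondrial aldehyde dehydrogenase, also stood at -0.20 (adjusted p = 0.704). Sord and Akr1b3 were not analysed here. Of 6 glucose-sensing partners 0 passed, 4 lay above 0 and 2 below, and 2 of the 6 had a mean log2 under 6. Txn1, the thioredoxin that Txnip binds, stood at -0.20 (adjusted p = 0.671) and Mlxip, the ChREBP relative also called MondoA, at 0.19 (adjusted p = 0.821).

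Of 12 ChREBP target genes, mostly of fat synthesis, 0 passed in either direction, 11 had a difference above 0 and 1 below, with a median of 0.38. Without HGI 1 and LGI 4 the median was 0.22. Pnpla3 stood at 1.66 ± 0.54 (SE, adjusted p = 0.469), Elovl6, a fatty acid elongase, at 0.82 ± 0.31 (SE, adjusted p = 0.545) and G6pc, glucose 6-phosphatase, at 0.76 ± 0.45 (SE, adjusted p = 0.759). Without LGI 4 they stood at 1.11, 0.53 and 0.27. In that setting Thrsp went from 0.01 to -0.33, Tkt from 0.07 to -0.04 and Gpd1 from -0.19 to -0.32. The other targets stayed above 0.

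Of 6 genes of pyruvate and lactate transport and oxidation 0 passed, with a median of 0.03. Ldhd, the mitochondrial D-lactate dehydrogenase, measured 8.01, 8.57, 8.59, 8.34 and 8.13 log2 in the HGI livers, against 8.84, 9.03, 8.91, 9.83 and 8.87 log2 in the LGI livers. Every HGI liver lay below every LGI liver, and LGI 4 was highest. The difference was -0.77 ± 0.18 (SE, adjusted p = 0.235), and -0.58 without LGI 4. Slc16a1, the lactate and pyruvate transporter MCT1, stood at 0.36 ± 0.17 (SE, adjusted p = 0.669) and Mpc1, a subunit of the mitochondrial pyruvate carrier, at 0.11 (adjusted p = 0.916).

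**Figure D4:**
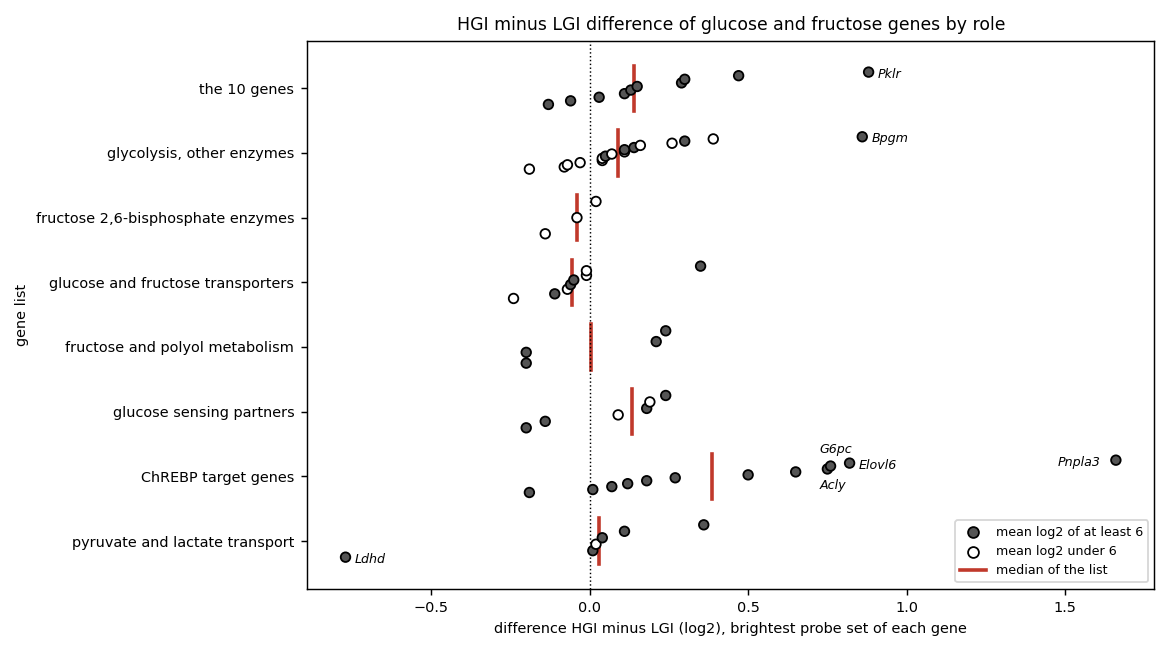
Difference HGI minus LGI (log2, horizontal axis) of each gene at its brightest probe set, in rows by role, with filled points for a mean log2 of 6 or more, open points for dimmer genes, and a vertical bar at the median of each list. Genes that differed by more than 0.7 are named, and the medians run from -0.05 for the other transporters to 0.38 for the ChREBP targets.

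With each liver left out in turn, the Pklr difference at its brightest probe set stayed between 0.50 and 1.02, that of Pfkl at its brightest between 0.26 and 0.56, and that of Ldha between 0.19 and 0.54. The smallest adjusted p in these settings was 0.463 for Pklr, 0.489 for Pfkl and 0.250 for Ldha. The differences of Slc2a2, Pgam1, Mlxipl, Txnip and Khk changed sign with at least 1 liver left out.

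**Figure D5:**
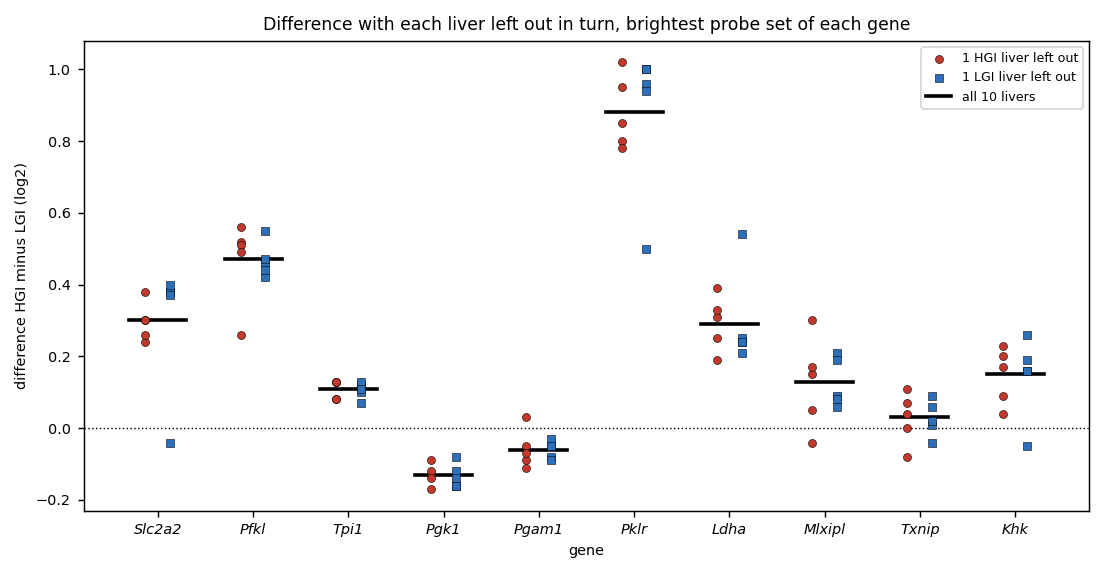
Difference HGI minus LGI (log2, vertical axis) of each gene at its brightest probe set with 1 HGI liver (circles) or 1 LGI liver (squares) left out in turn, and with all 10 livers (line). The separate squares below the rest in Slc2a2 (-0.04) and Pklr (0.50) and above the rest in Ldha (0.54) are the fits without LGI 4, and the separate circle in Pfkl (0.26) is the fit without HGI 5.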

How the data were processed

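Hepatic RNA of 10 mice was labelled with biotin, per the labels, and measured on arrays with Affymetrix probe set names. The authors' deposited values are log2 expression per probe set, made with RMA in R 2.6.1 per the submitters' processing notes. RMA pulls arrays to a shared distribution and shrinks differences of dim probe sets. The deposited values of HGI 1 still had a smaller SD (2.157 log2) than those of the other arrays (2.255 to 2.312 log2). The labels and file headers name no genome build.

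Of 45101 deposited probe sets, 64 controls were left out of the test and the other 45037 all entered it, dim ones included. The test was limma 3.58.1 (lmFit and eBayes, R 4.3.3) on HGI minus LGI, with no covariate and Benjamini-Hochberg adjustment. The platform annotation gave 34945 probe sets 1 symbol, 932 several and 9160 none, and 0 symbols were changed through RefSeq gene IDs. A gene stands in lists at its probe set of the highest mean. Text names all members and, per list, the genes past the threshold or else the 3 with the largest difference, with ties. It also names the ChREBP targets that lay below 0 without LGI 4. The members and lists were chosen with earlier results of these data known. Alternatives were filters on dim values, further normalization, another variance model, weighting of arrays, testing each gene once, the replicate number as a block, and leaving out arrays. The number of arrays, 5 per diet, limits the precision.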

Additional observations from a re-analysis of the deposited data

Results flagged for a closer look

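In 38 sets of 5 values (19 probe sets in each diet), the gap of the highest or lowest liver to its nearest neighbour was set against the whole range of the diet, and a share above 0.71 (Dixon's value for 5 samples) marked 7. Chance gives about 1 in 20, and the same measure marked 9.13% of the sets of all 11472 bright probe sets (7.65% in HGI, 10.6% in LGI). LGI 4 accounts for 4 of the 7: it was lowest of LGI in Slc2a2 (9.82 log2, next 11.46), in Pklr at 1438711_at (7.07, next 8.85) and in Pklr at 1421258_a_at (5.82, next 7.51), and highest of LGI in Ldha (12.20, next 11.03). HGI 5 was highest of HGI in Pfkl at both bright probe sets (9.60, next 8.68, and 8.47, next 7.71). HGI 2 was lowest of HGI in Pgk1 at 1439435_x_at (9.92, next 9.99), a gap of 0.07 log2 in a set with a range under 0.1.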

How the results depend on the processing

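Of the 19 member probe sets 0 passed in the main analysis and in every alternative, including each liver left out. The count over the whole table was 29, of which 58.6% were higher in HGI. It was 63 after quantile normalization, 17 after median centring (76.5% higher), 64 with array weights and 58 without HGI 1 and LGI 4, a setting added after seeing the data. The share higher in HGI was 50% among probe sets with a mean log2 of 6 or more, 40% with 1 probe set per gene (12 of 30), 42.9% without HGI 3, and 100% without HGI 5, LGI 2, LGI 3 or LGI 5. With 1 liver left out the count ran from 5 (without LGI 2, LGI 3 or LGI 5) to 49 (without HGI 3), and was 15 without HGI 4 and 7 without HGI 5. The cause was not tested. The median difference of the 10 genes, 0.14, ran from 0.02 (without LGI 4) to 0.26 (without HGI 1) and was 0.19 after quantile normalization. Of 369 recomputed differences of single probe sets, 9 changed sign and 360 kept their sign and stayed short of the threshold. Those that changed sign, over the settings with 1 liver left out, were Khk (-0.05 to 0.26), Mlxipl (-0.04 to 0.30), Pgam1 (-0.11 to 0.03, and 0.03 without HGI 1 and LGI 4), Slc2a2 (-0.04 to 0.40) and Txnip (-0.08 to 0.11 and -0.05 to 0.39). With the replicate number as a block the count over the table was 33, with 0 members among them, and the block changed no call of a member; deviations of same-numbered arrays correlated between -0.13 and 0.04, and 0 of 10 arrays correlated best with their own number, so the numbers were not taken as pairs. Signal near background limits the dim Pfkl probe set.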
